A study of Mus musculus with 6 samples.

Results

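Immediate early genes are described here across 6 mouse RNA-seq libraries. The 10 members are Fos, Fosb, Jun, Junb, Egr1, Npas4, Arc, Nr4a1, Dusp1 and Ier2, taken by gene symbol without use of measured values, and all 10 have a row among the 24346 rows of the files. In 3 libraries the mouse is labelled DKO, a knockout of both miR-124a-1 and miR-124a-2. In 3 libraries it is labelled control, with the genotype miR-124a-1+/-, so both groups carry a lesion of miR-124a-1 and no group is wild type. The labels give brain at embryonic day 17.5 for all 6 libraries, and no litter, sex or batch. The title of the series names neuronal maturation, and the contrast asks what the loss of the microRNA does to the transcripts. Nothing in the labels says that replicates are separate animals beyond their description as embryos, so p-values measure the spread between these libraries.

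Immediate early genes are switched on within minutes of a stimulus, from factors that are already in the cell, and their transcripts are short-lived. Calcium entry, cyclic AMP and growth factor signals reach them through kinases that act on the transcription factors CREB and SRF. In neurons, the retina included, they are widely used as marks of recent activity, and in many other cells they answer growth factors and stress.

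Values are FPKM, fragment counts scaled by transcript length and by library size, so levels can be compared between genes per length. FPKM hold no read totals, and depth relative to DKO replicate 1, read from the smallest values, was between 0.956 and 1.24. The marker levels go against the labelled tissue and age in both groups. The 7 rod photoreceptor markers summed to 12649 to 13853 FPKM in the libraries labelled DKO, and to 13279 to 14501 FPKM in the libraries labelled control. The 6 markers of cortical projection neurons summed to 8.23 to 8.82 FPKM in DKO and 8.31 to 9.61 FPKM in control, with Emx1 at 0 in all 6 libraries. The 6 markers of dividing progenitors summed to 9.11 to 10.2 FPKM in DKO and 7.32 to 8.03 FPKM in control. Most of that was Eomes (4.95 to 5.91 FPKM in DKO, 3.72 to 4.06 FPKM in control) and Nes (2.67 to 3.45 FPKM over the 6 libraries). Mki67, Top2a, Ccnb1 and Cdk1 lay at 0.0765 to 0.438 FPKM in both groups, so the difference in the sums is mostly that of Eomes. Groups are therefore called by their labels only. Control replicate 3 stood apart, in that rows of short RNAs made up 6.36% of its FPKM sum, against 1.76% to 3.13% in the other 5 libraries.

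The promoters of 7 members were matched in RefSeq (GRCm38.p6) by symbol, and 4 are printed because their genes mark the contrast described below, between members that correlated positively over the libraries and Jun, which did not correlate positively with most of them. Each run is the 250 bases before the RefSeq start site, 5′ to 3′ on the gene's strand, and none of these 4 runs overlaps an exon in GENCODE M21. Capitals mark TGACG on either strand (CGTCA on the printed strand), the core of the element that CREB binds. In Jun, which holds no TGACG, they mark the match to the MEF2 site. Fos lies at chr12:85473640-85473889 on the plus strand, Nr4a1 at chr15:101266596-101266845 on the plus strand, Junb at chr8:84978749-84978998 on the minus strand and Jun at chr4:95052223-95052472 on the minus strand. The Nr4a1 run lies inside the GENCODE span of its gene (101254269 to 101274795), before a RefSeq start within that span.
Fos: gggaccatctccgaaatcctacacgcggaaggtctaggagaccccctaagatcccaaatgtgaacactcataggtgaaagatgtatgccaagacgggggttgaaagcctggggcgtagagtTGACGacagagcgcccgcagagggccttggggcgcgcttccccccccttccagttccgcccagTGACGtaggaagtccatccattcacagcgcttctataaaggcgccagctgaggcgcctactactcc
Nr4a1: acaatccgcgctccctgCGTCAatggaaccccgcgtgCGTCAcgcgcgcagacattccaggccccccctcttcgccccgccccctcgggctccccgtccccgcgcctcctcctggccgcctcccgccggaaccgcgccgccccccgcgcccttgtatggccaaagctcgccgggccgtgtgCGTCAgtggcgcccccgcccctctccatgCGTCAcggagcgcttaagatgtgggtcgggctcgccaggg
Junb: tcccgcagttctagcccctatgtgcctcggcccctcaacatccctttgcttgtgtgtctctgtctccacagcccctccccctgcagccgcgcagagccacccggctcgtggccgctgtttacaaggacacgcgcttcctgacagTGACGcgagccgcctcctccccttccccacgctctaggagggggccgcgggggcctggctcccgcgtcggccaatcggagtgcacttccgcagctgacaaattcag
Jun: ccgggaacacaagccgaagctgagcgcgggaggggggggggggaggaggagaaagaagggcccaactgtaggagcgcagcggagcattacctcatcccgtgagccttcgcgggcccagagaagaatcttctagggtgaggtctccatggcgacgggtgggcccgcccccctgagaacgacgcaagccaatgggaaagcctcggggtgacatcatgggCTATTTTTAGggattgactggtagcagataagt
TGACG was present in 6 of the 7 matched promoters (Dusp1, Fos, Fosb, Junb, Npas4 and Nr4a1), against 17.8% of the 32851 promoters in the table. Of the 3 runs not printed, that of Npas4 lies wholly within an exon of GENCODE M21 (250 of 250 bases), and those of Dusp1 and Fosb overlap one by 47 and 6 bases. The Fos run holds it 66 and 129 bases before the start site, counted from its first base, the Junb run at 106, and the Nr4a1 run 4 times. The full palindrome TGACGTCA, which contains TGACG, was in Dusp1 alone, against 1.55% of all promoters. The MEF2 site on either strand was in Jun alone (0.508% of all), and TATAAA in Fos alone (12.4%). The CArG box, which SRF binds, and TGANTCA, the AP-1 site, were in none of the 7 windows (1.47% and 6.75% of all). Variants of these patterns, such as tgacatca in the Jun run, and bases further upstream were not searched. Egr1, Arc and Ier2 had no matched promoter. All motifs were searched on both strands, and a match describes letters only. Jun, whose window holds no TGACG, had r of 0.53 with Dusp1 and 0.068 with Junb, whose windows hold it. Any relation of these letters to the covariation was not tested.

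Of the 10 members, 7 had means of 8.83 to 26.5 FPKM over the 6 libraries, and 3 were low. Egr1 was highest (mean of 26.5 FPKM), followed by Jun (17.5), Fos (16.3), Nr4a1 (12.5), Ier2 (9.84), Dusp1 (9.80) and Junb (8.83). The ranges of neighbours in this order overlapped, and Egr1 exceeded Jun, and Jun exceeded Fos, in 4 of 6 libraries each. Npas4 (1.52 FPKM) lay below Junb in all 6 libraries with no overlap, and Fosb (0.436) lay below Npas4 in the same way. Arc (0.399 FPKM) overlapped Fosb.

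**Figure D1:**
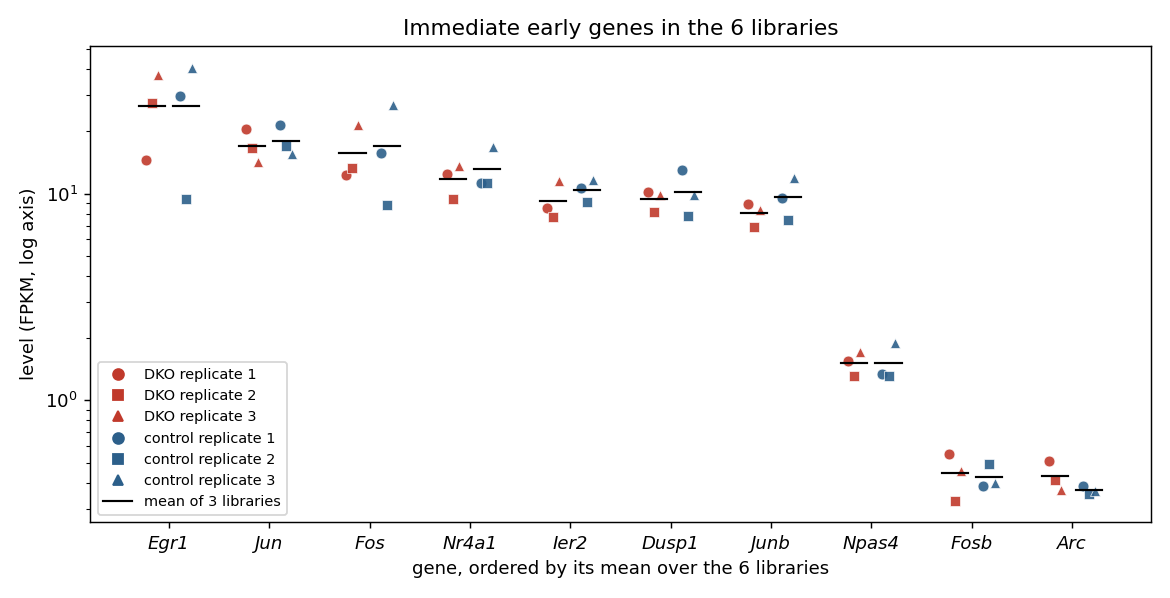
FPKM on a log axis of the 10 genes, ordered by mean, in the 3 libraries labelled DKO (left of each pair) and the 3 labelled control (right); the shape gives the replicate number and the bar the mean of 3. Egr1 and Fos spread widest within both labels, from 9.37 to 40.7 and from 8.76 to 26.8 FPKM, and no gene separates the groups.

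No member differed between the labels beyond the spread of its libraries. With testing limited to rows that averaged 1 FPKM or more, on log2(FPKM + 1), 8 of the 10 members entered the fit, and 0 passed an adjusted p of 0.05 in limma with Benjamini-Hochberg adjustment, where 3 of 13215 rows passed (0.0227%). At an unadjusted p under 0.05 there were also 0 of 8, against 7.88% of all tested rows. The values of the groups overlapped for all 10 members, and 13.9% of the tested rows did not overlap. Of the 8 members tested, 2 had a log2 fold change (DKO minus control) above 0 and 6 below, with a median of -0.084 against -0.0016 over all tested rows. In bulk RNA, fewer cells of a type and less RNA per cell cannot be told apart.

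Among the AP-1 subunits, Fos, which pairs with Jun proteins (GRCm38 chromosome 12, 85473890 to 85477273), measured 12.2, 13.3 and 21.4 FPKM in DKO libraries 1 to 3, and 15.7, 8.76 and 26.8 FPKM in control libraries 1 to 3. The lowest and the highest value of Fos both belong to the control label. Its means were 15.6 ± 5.01 FPKM in DKO and 17.1 ± 9.09 FPKM in control (SD, n = 3 each), with a log2 fold change of -0.032 (95% interval -0.86 to 0.79; limma with Benjamini-Hochberg adjustment, adjusted p = 0.988). The sign turned without DKO replicate 1 or 2, or without control replicate 3.

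Jun (chromosome 4, 95049034 to 95052222), the partner with which Fos forms AP-1, measured 20.4, 16.6 and 14.1 FPKM in DKO and 21.5, 17.1 and 15.6 FPKM in control. It was lowest in replicate 3 of both labels, where Fos was highest. The log2 fold change of Jun was -0.079 (95% interval -0.42 to 0.26; limma, Benjamini-Hochberg adjusted p = 0.936), and it turned to 0.040 without DKO replicate 3 and 0.046 without control replicate 1. Junb (chromosome 8, 84974484 to 84978718), a Jun relative with a weaker activating function, measured 8.89, 6.92 and 8.36 FPKM in DKO and 9.56, 7.42 and 11.9 FPKM in control. Junb had the smallest p of the members, with a log2 fold change of -0.21 (95% interval -0.57 to 0.15; limma, unadjusted p = 0.209, Benjamini-Hochberg adjusted p = 0.778). It is also the member whose DKO mean lay furthest below its control mean on the log2 scale. Fosb (chromosome 7, 19302696 to 19310051), whose truncated form gathers in chronically active neurons, measured 0.553, 0.328 and 0.457 FPKM in DKO and 0.386, 0.494 and 0.400 FPKM in control. It was under the limit for testing, and in the fit with no filter its log2 fold change was 0.017 (limma, Benjamini-Hochberg adjusted p = 0.973).

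Egr1 is a zinc finger factor that connects stimuli to later gene programmes (chromosome 18, 34859823 to 34864984). It measured 14.5, 27.3 and 37.5 FPKM in DKO and 29.6, 9.37 and 40.7 FPKM in control. Its values spanned 2.59-fold within DKO and 4.34-fold within control, while the means were almost the same, 26.4 ± 11.5 FPKM in DKO and 26.6 ± 15.9 FPKM in control (SD, n = 3 each). The log2 fold change was 0.12 with a 95% interval of -1.07 to 1.31 (limma, Benjamini-Hochberg adjusted p = 0.971), so a change of 1 log2 unit in either direction lies within the interval. It turned to -0.18 without DKO replicate 3 and -0.48 without control replicate 2. Nr4a1, an orphan nuclear receptor (chromosome 15, 101254269 to 101274795), measured 12.4, 9.43 and 13.6 FPKM in DKO and 11.3, 11.3 and 16.8 FPKM in control, with replicate 3 the highest of each label. Its log2 fold change was -0.13 (95% interval -0.53 to 0.27; limma, Benjamini-Hochberg adjusted p = 0.90), or 0.0084 without DKO replicate 2 and 0.045 without control replicate 3. Npas4, a factor restricted to neurons and tied to calcium entry (chromosome 19, 4984355 to 4990316), measured 1.54, 1.32 and 1.71 FPKM in DKO and 1.35, 1.31 and 1.90 FPKM in control. The log2 fold change of Npas4 was 0.0064 (95% interval -0.31 to 0.32; limma, Benjamini-Hochberg adjusted p = 0.993), and it turned negative without DKO replicate 1 or 3, or control replicate 1 or 2.

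Among the members with other roles, Dusp1, a phosphatase that switches off MAP kinases (chromosome 17, 26505590 to 26562128), measured 10.2, 8.17 and 9.82 FPKM in DKO and 12.97, 7.78 and 9.89 FPKM in control. It had its highest and its lowest value under the control label, and its log2 fold change was -0.089 (95% interval -0.47 to 0.29; limma, Benjamini-Hochberg adjusted p = 0.934), or 0.083 without control replicate 1. Ier2, a nuclear protein of the early response (chromosome 8, 84661331 to 84662852), measured 8.54, 7.71 and 11.5 FPKM in DKO and 10.6, 9.13 and 11.6 FPKM in control, with replicate 3 the highest of each label. Its log2 fold change was -0.17 (95% interval -0.50 to 0.16; limma, Benjamini-Hochberg adjusted p = 0.803). Arc, a capsid-like protein of dendrites that regulates glutamate receptors (chromosome 15, 74669083 to 74672570), measured 0.508, 0.411 and 0.368 FPKM in DKO and 0.387, 0.354 and 0.364 FPKM in control. Arc was under the limit for testing as well, and with no filter its log2 fold change was 0.062 (limma, Benjamini-Hochberg adjusted p = 0.881).

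Reads of 3 members may be shared with a gene on the other strand, since the counting is not stated to use strand. Junb overlaps Prdx2 (288 to 306 FPKM over the 6 libraries), Dusp1 overlaps Ergic1 (33.2 to 35.6 FPKM), and Jun overlaps the antisense transcript Junos. The span of Dusp1 also overlaps a processed pseudogene on the other strand. On its own strand it overlaps another processed pseudogene and a sense intronic transcript, which counting by strand would not separate. These are overlaps of whole gene spans, and whether exons are shared was not checked. The levels of Junb, Dusp1 and Jun are uncertain to that extent.

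The members spread widely between libraries of the same label. The SD within groups, pooled over both labels on log2(FPKM + 1), was 0.88 for Egr1 and 0.61 for Fos, against a median of 0.10 over the 13215 tested rows. Egr1 stood at percentile 99.4 and Fos at percentile 99.1 of that spread. Nr4a1 (SD 0.28, percentile 94.8), Dusp1 (0.26, 93.6), Junb (0.25, 92.5), Jun (0.24, 91.8) and Ier2 (0.22, 89.7) followed, and Npas4 (0.15) stood at percentile 75.1. Among the 10075 rows that averaged 5 FPKM or more, the 7 members in that range stood at percentiles 94.8 to 99.4. These are descriptions of the libraries, with no test.

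**Figure D2:**
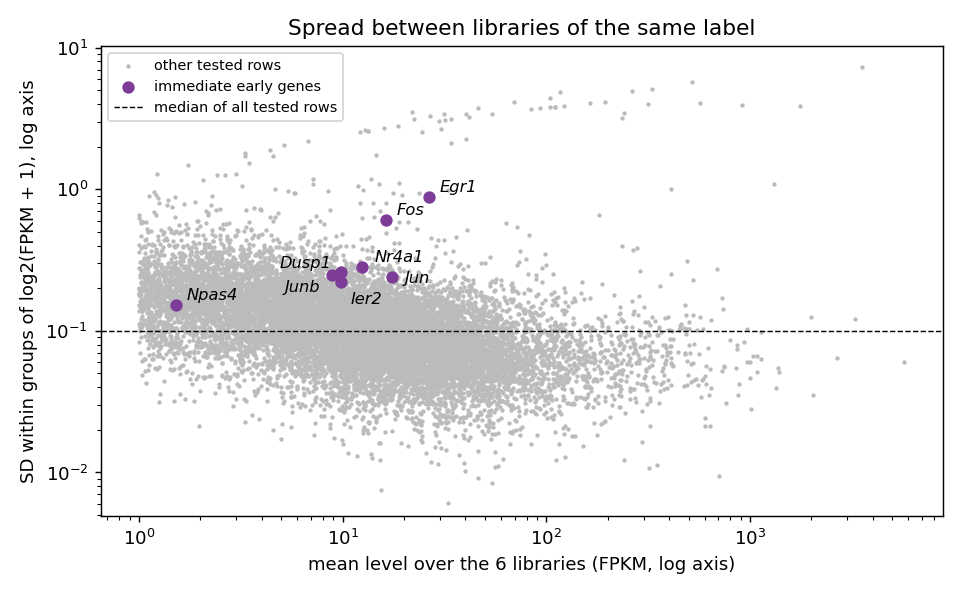
SD within groups of log2(FPKM + 1) against mean FPKM (both axes are log) for all 13215 tested rows (grey) and the 8 tested members (purple); the dashed line is the median of all rows, 0.10. Egr1 (0.88) and Fos (0.61) lie above most rows of similar level, with the other 6 members between 0.15 and 0.28, and some rows spread more than any member.

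Fos and Egr1 ranked the 6 libraries in the same order. From low to high this order was control replicate 2, DKO replicate 1, DKO replicate 2, control replicate 1, DKO replicate 3 and control replicate 3, so that the labels interleave along it. Pearson's r between Fos and Egr1 on log2(FPKM + 1) was 0.92 (2-sided exact permutation test, n = 6, p = 0.0111, adjusted over 28 pairs 0.156), and Spearman's rho was 1 (exact permutation p = 0.00278, adjusted 0.0778). Without control replicates 2 and 3, the libraries farthest from the median of Fos, r was 0.83, and without control replicate 3 alone it was 0.93. With each group mean subtracted r was 0.92. Npas4 and Nr4a1 had the highest r of all pairs, 0.94 (exact permutation p = 0.00417, adjusted 0.117), with rho of 0.94 (exact p = 0.0167, adjusted 0.233), and r of 0.70 without replicate 3 of both labels. Junb and Nr4a1 had r of 0.85 (exact p = 0.0417, adjusted 0.288) and rho of 0.77 (exact p = 0.103, adjusted 0.272). That relation rests on control replicate 3 and DKO replicate 2, since r was 0.018 without them.

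Over the 28 pairs of the 8 tested members, 4 had an unadjusted exact permutation p under 0.05 for Pearson's r, and 0 passed after adjustment over the pairs. The median r was 0.55. All 21 pairs that leave out Jun had r above 0, from 0.19 to 0.94, with a median of 0.68. The same 21 were above 0 without control replicate 3, with a median of 0.53. The sign did not hold in all of them without the 2 libraries farthest from the median of the gene named first. There r was -0.12 for Npas4 with Ier2 and -0.039 for Nr4a1 with Dusp1, and 0.018 to 0.99 in the other pairs without Jun. For Jun, 5 of its 7 pairs had r below 0. The lowest were with Npas4 (r of -0.51, rho of -0.49, exact permutation p = 0.292 and 0.356), Fos (r of -0.46, rho of -0.54, exact p = 0.362 and 0.297) and Egr1 (r of -0.38, rho of -0.54, exact p = 0.446 and 0.297). These 3 had adjusted permutation p of 0.462 to 0.543. Each r was also taken without the 2 libraries farthest from the median of the gene named first in the pair (Jun, or Fos in its own pair). There r was -0.73 for Npas4, -0.65 for Fos and -0.73 for Egr1. Without control replicate 3 alone, r was weaker, at -0.41 for Npas4, -0.33 for Fos and -0.27 for Egr1. The pairs of Jun above 0 were with Dusp1 (r of 0.53, rho of 0.49) and Junb (r of 0.068, rho of 0.14). Their r was 0.59 and 0.58 without control replicate 3, and -0.87 and -0.39 without replicate 1 of both labels. The setting apart of Jun was seen in these values and has no test of its own.

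**Figure D3:**
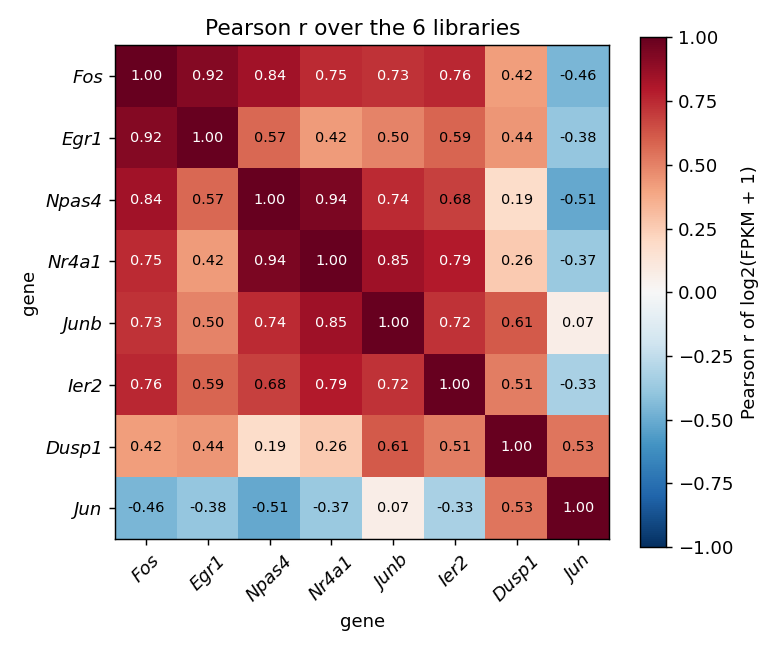
Pearson r of log2(FPKM + 1) over the 6 libraries for each pair of the 8 tested members; red is positive and blue negative. Fos, Egr1, Npas4, Nr4a1, Junb and Ier2 form a positive block from 0.42 to 0.94, and Jun is negative with 5 of the other 7.

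The ratio of Fos to Jun divides values of the same library, so depth cancels. It was 0.599, 0.799 and 1.51 in DKO libraries 1 to 3, and 0.729, 0.513 and 1.72 in control libraries 1 to 3. The ratio of Egr1 to Jun was 0.709, 1.64 and 2.65 in DKO and 1.38, 0.548 and 2.61 in control. Both ratios were highest in replicate 3 of both labels and overlapped between the labels.

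**Figure D4:**
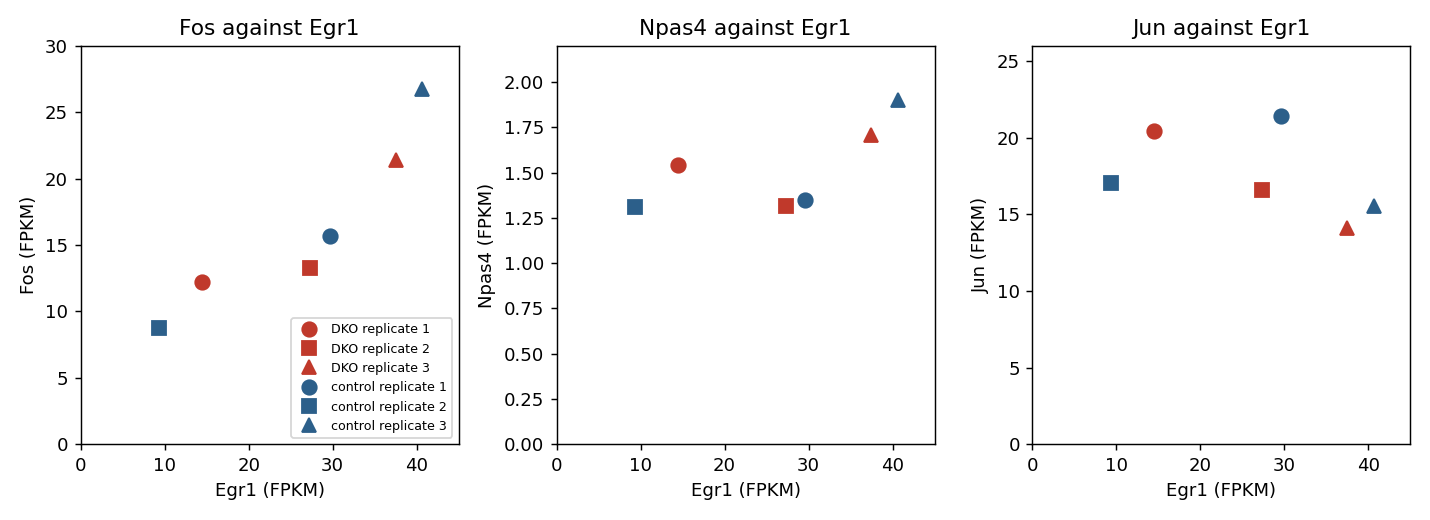
FPKM of Fos, Npas4 and Jun against FPKM of Egr1 in the 6 libraries; colour gives the label and shape the replicate number. Fos is higher at each step along Egr1, between 8.76 and 26.8 FPKM, while Npas4 stays between 1.31 and 1.90 FPKM and Jun is low (14.1 and 15.6 FPKM) in both libraries of highest Egr1.

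Control replicate 3 was the highest library for 6 of the 10 members (Fos, Junb, Egr1, Npas4, Nr4a1 and Ier2), where 20.0% of all tested rows were highest in it. Control replicate 2 was the lowest for 5 (Fos, Egr1, Npas4, Arc and Dusp1), where 14.8% of all tested rows were. DKO replicate 2 was the lowest for 4 (Fosb, Junb, Nr4a1 and Ier2), where 12.5% of all tested rows were. The sum of the 10 members was 89.7, 91.5 and 119 FPKM in DKO, and 113, 73.0 and 136 FPKM in control. Of the 7 microglia markers, 5 were also highest in control replicate 3, and their sum was 36.8, 33.1 and 36.7 FPKM in DKO and 33.5, 31.8 and 48.2 FPKM in control. The red blood cell markers summed to 19.1, 21.1 and 12.8 FPKM in DKO and 17.2, 18.4 and 30.7 FPKM in control. Most of that was Hba-a1, at 18.2, 20.0 and 12.1 FPKM in DKO and 15.9, 17.4 and 29.6 FPKM in control. The embryonic globin Hbb-y was at 0 throughout, but Hba-a2 (0.0580 to 0.0585 FPKM) and Hbb-bs (0.0070 to 0.0075 FPKM) were near 0 too. Hbb-bt had no row, so the 0 of Hbb-y is no guide to age. Rod markers were highest in control replicate 3 for 5 of 7 genes as well. The 4 astrocyte markers summed to 169, 163 and 164 FPKM in DKO and 158, 170 and 179 FPKM in control, and Gfap among them measured 20.2, 9.94 and 11.04 FPKM in DKO and 9.96, 10.3 and 36.2 FPKM in control. The part of these cells, and of the short RNA share of control replicate 3, in the spread of the members was not tested. The summed endothelial markers were highest in control replicate 1, at 106, 108 and 111 FPKM in DKO and 114, 105 and 110 FPKM in control. Most of that was Kdr (57.3 to 70.7 FPKM over the 6 libraries). Flt1 was highest in that library, while Cldn5, Pecam1, Cdh5, Kdr and Tek were highest in others. The summed Müller glia markers were highest in DKO replicate 3, at 1806, 1863 and 1958 FPKM in DKO and 1812, 1884 and 1814 FPKM in control. Glul was the largest part (893 to 1070 FPKM). Glul and Rlbp1 were highest in that library, while Slc1a3, Aqp4, Crym and Apoe were highest in others.

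The closest matches to the members' mean profile over the 6 libraries were genes of other kinds. Rows that averaged 5 FPKM or more were compared, without the members, short RNAs and symbols of clones and predicted gene models, which left 9627. The 8 of highest Pearson r were Ndufb3 (0.99), a subunit of respiratory complex I, Ucp2 (0.98), an inner membrane carrier of mitochondria, Etfdh (0.97), an electron transfer enzyme, Mrps25 (0.97), a mitochondrial ribosomal protein, Tsr2 (0.97), Tbca (0.97), a tubulin-folding factor, Agfg1 (0.97) and Plekha3 (0.96). Spearman's rho was 0.89 for Agfg1 and 0.94 for the others. In these 8 genes the highest library was 1.07 to 1.49 times the lowest, against 1.45 to 4.34 times in the 8 tested members, so that Tbca (1.49) spanned about as much as Npas4 (1.45) and Jun (1.52). With only 6 libraries, 62 of the 9627 rows reached r of at least 0.90, so likeness here is a description.

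Other early-induced genes were examined from lists of related genes. Of 8 other AP-1 and ATF factors 5 were tested, and Fosl1 was listed at 0 in 4 of 6 libraries. Jund, the AP-1 subunit that most cells express without a stimulus, measured 25.0, 19.3 and 21.9 FPKM in DKO and 32.5, 27.5 and 30.3 FPKM in control. Its values did not overlap between labels, with a log2 fold change of -0.43 (95% interval -0.66 to -0.20; limma, unadjusted p = 0.00242, Benjamini-Hochberg adjusted p = 0.340), and it did not pass. Atf3 (log2 fold change -0.35), Mafk (-0.25) and Jdp2 (-0.052) overlapped between labels. Of the 5 tested factors of the list, 1 was above 0 and 4 below, with a median of -0.25.

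The relatives of Egr1 were near the floor. Egr2 lay at 0 to 0.329 FPKM, Egr3 at 0.0722 to 0.345 FPKM and Egr4 at 0.0666 to 0.412 FPKM, all under the limit for testing. Of the 14 other early-induced transcription factors 7 were tested, with 4 above 0 and 3 below and a median of 0.00045. Nr4a2, a relative of Nr4a1, had 4.20, 4.08 and 4.16 FPKM in DKO and 3.73, 3.62 and 3.54 FPKM in control. Its groups did not overlap, but with a log2 fold change of 0.15 it missed the threshold (limma, Benjamini-Hochberg adjusted p = 0.717). Klf2, Klf9 and Klf10 had log2 fold changes of -0.30, -0.083 and -0.19 (limma, Benjamini-Hochberg adjusted p 0.747 to 0.837).

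Early-induced signalling and feedback genes, 22 tested, had 6 above 0 and 16 below with a median of -0.044, and 7 of them were highest in control replicate 3. Those of smallest p were Sik1, a kinase that restrains CREB coactivators (log2 fold change 0.27), Sgk1 (-0.29), Zfp36l1, which destabilises transcripts (-0.18), and Ier3 (-0.14), with limma Benjamini-Hochberg adjusted p of 0.648 to 0.790. Btg2, an early-induced antiproliferative gene singled out after its values were seen, measured 39.9, 35.3 and 28.0 FPKM in DKO and 43.1, 31.8 and 26.3 FPKM in control. It was lowest in replicate 3 of both labels, as Jun was. So were Ier3, Ier5, Gadd45g, Gem and Rgs2 of this list, while Trib1 and Cyr61 were highest in replicate 3 of both labels.

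Genes that neurons switch on later than the members included the lowest p of all the lists. Vgf, a secreted neuropeptide precursor, measured 5.90, 4.86 and 6.56 FPKM in DKO and 10.2, 11.98 and 11.1 FPKM in control (limma log2 fold change -0.84, Benjamini-Hochberg adjusted p = 0.118). Rasgrp1, an activator of Ras, measured 5.80, 5.34 and 5.63 FPKM in DKO and 8.24, 8.22 and 6.85 FPKM in control (log2 fold change -0.41; limma, adjusted p = 0.329). Nrn1, a neuritin of growing neurites, measured 30.1, 33.3 and 32.6 FPKM in DKO and 36.4, 37.4 and 35.8 FPKM in control (log2 fold change -0.19; limma, adjusted p = 0.470). The groups did not overlap for these 3 of the 12 tested genes of the list, which were named for their small p, and none passed. Over all tested rows 13.9% did not overlap. Scg2, a secretogranin, had a log2 fold change of -0.092, and over the 12 tested genes of the list 4 were above 0 and 8 below, with a median of -0.018.

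The related lists ranged widely in their spread between libraries of the same label. The median SD within groups was 0.25 over the 8 members, and likewise 0.25 over the 7 other early-induced transcription factors and 0.21 over the 22 signalling and feedback genes. It was 0.15 over the 5 other AP-1 and ATF factors, 0.091 over the late neuronal genes, 0.10 over 18 upstream factors and cofactors, 0.060 over 20 upstream kinases and 0.080 over 14 heat shock and unfolded protein genes. The median of all tested rows was 0.10, and the differences between lists were not tested. Among the kinases 12 were above 0 and 8 below (median 0.031), and the smallest p belonged to Rps6ka4, a kinase of CREB and histone H3. It measured 16.8, 16.5 and 16.4 FPKM in DKO and 14.7, 14.3 and 12.9 FPKM in control (limma log2 fold change 0.23, Benjamini-Hochberg adjusted p = 0.447). Mapk3, Prkacb and Prkaca had log2 fold changes of 0.12, 0.075 and 0.092. Among the upstream factors 9 were above 0 and 9 below (median -0.0028), led by Crem (-0.19), Atf1 (-0.17), Mef2c (-0.14) and Mkl1 (0.090), with limma adjusted p of 0.750 to 0.847 (Benjamini-Hochberg).

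The summed heat shock and unfolded protein genes, which answer protein damage, lay at 2143, 2148 and 2166 FPKM in DKO and 2176, 2145 and 2157 FPKM in control, highest in control replicate 1. Their genes of smallest p were Hsph1 (log2 fold change 0.16), Hspa1b (-0.22), Dnajb1 (-0.13) and Hsp90ab1 (0.074), with limma Benjamini-Hochberg adjusted p of 0.550 to 0.734. In each of these 7 lists 0 genes passed the threshold in either direction.

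**Figure D5:**
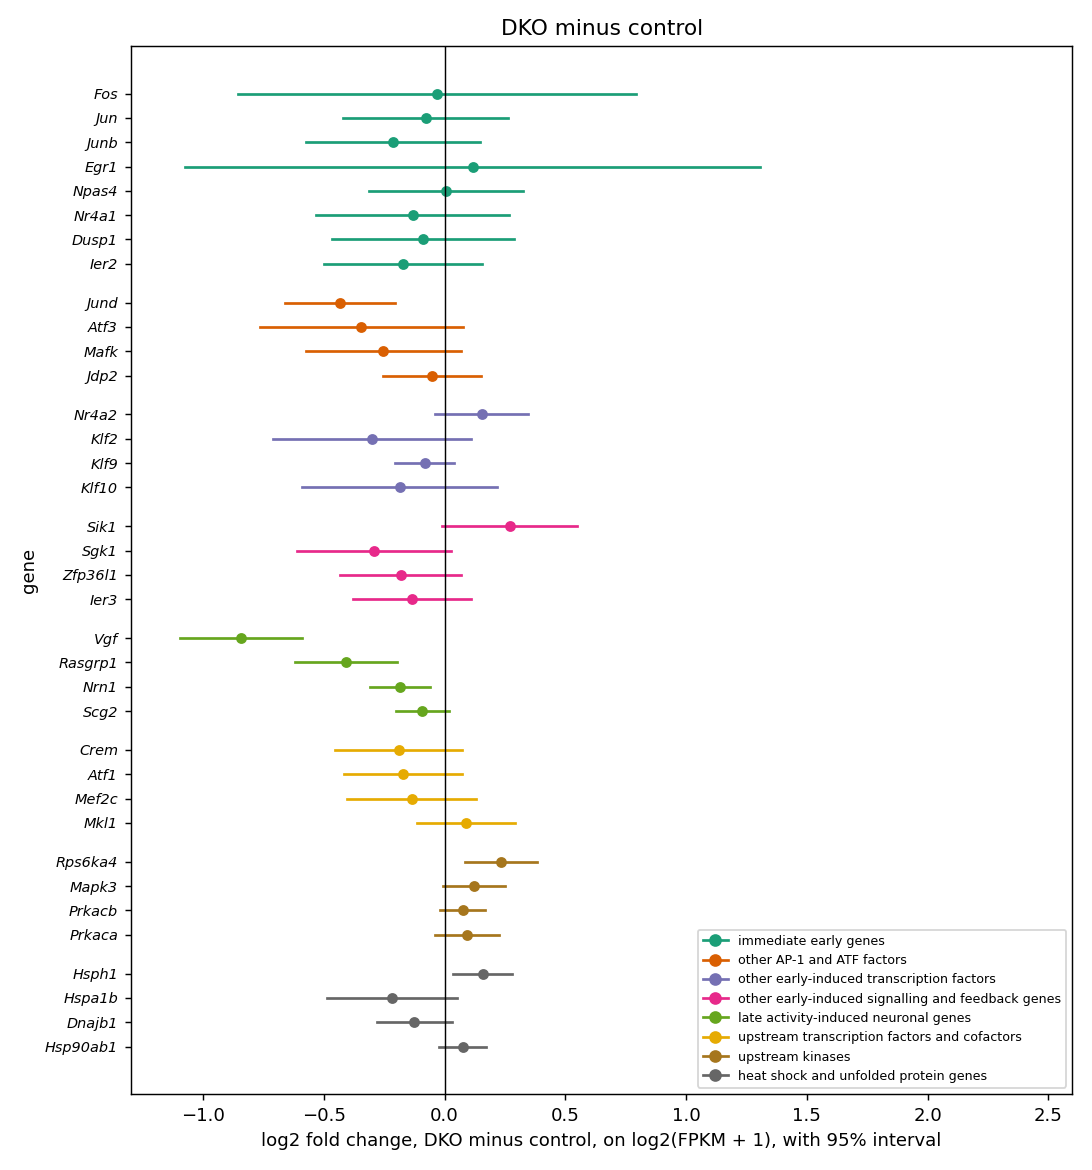
Log2 fold change (DKO minus control, on log2(FPKM + 1)) with its 95% limma interval for the 8 tested members and the 4 genes of smallest p in each related list. All 8 intervals of the members cross 0, widest for Egr1 (-1.07 to 1.31), while those of Jund, Vgf, Rasgrp1, Nrn1, Rps6ka4 and Hsph1 do not, before adjustment.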

How the data were processed

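TRIzol was used for RNA extraction and the TruSeq stranded mRNA kit for library preparation, per the labels' protocols. The authors deposited 1 file per library that pairs gene symbols with FPKM, per the file headers; CKO, written in the headers of DKO libraries, is explained by no source. Per the submitters' processing notes, the build was mm10 and the tools were Cuffdiff 2.2.1, Bowtie2 and TopHat2 2.1.1. Their options, the annotation and library scaling were not given in the sources used here. FPKM carry no read totals, so precision comes from the spread between 3 libraries.

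The 13215 rows that averaged 1 FPKM or more were tested on log2(FPKM + 1), DKO minus control, with limma 3.58.1 (eBayes with a trend) in R 4.3.3 and Benjamini-Hochberg adjustment over all tested rows, with a threshold of 0.05. The script was tested on simulated data. On this scale the fold change of a low gene is smaller than its ratio of FPKM. Correlations used exact permutation over 720 orders of 6 libraries (NumPy 2.4.6, SciPy 1.17.1, Python 3.11.15).

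Members, lists and motifs were chosen with earlier results of these data known. All members are named. From each related list the 4 genes of smallest p are named, and other genes were named after their values were seen. The fit was repeated with quantile normalization, with median-of-ratios scaling, with pseudocounts of 0.1 and 0.5, without a filter, with a minimum mean of 5 FPKM, with replicate number as a block, with other eBayes settings, with arrayWeights, without short RNA rows and without each library in turn. Gene positions are from GENCODE M21 (GRCm38, the assembly of mm10).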

Additional observations from a re-analysis of the deposited data

How the results depend on the processing

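The count of 0 members past the threshold held in all 17 alternatives of the limma fit, where the lowest adjusted p of a member was 0.543 (Benjamini-Hochberg). Over all tested rows the count of 3 became 1 with eBayes without a trend, and 1 (without control replicate 2) to 4 when single libraries were left out; the cause was not tested. The direction of the members is not stable: of 135 values under alternatives 16 changed sign. Some of the 135 could not change, since fits that differ only in filter, block or eBayes setting keep the log2 fold change. The changes of sign came with arrayWeights or with single libraries left out. With arrayWeights the log2 fold change was 0.040 for Fos and -0.016 for Npas4. Without single libraries it ranged from -0.41 to 0.34 for Fos, -0.21 to 0.046 for Jun, -0.48 to 0.52 for Egr1, -0.052 to 0.11 for Npas4, -0.23 to 0.045 for Nr4a1 and -0.25 to 0.083 for Dusp1, while Junb (-0.37 to -0.064) and Ier2 (-0.32 to -0.064) kept their sign. The median over the members ranged from -0.25 (without control replicate 2) to 0.0035 (without DKO replicate 2). The median r of the pairs was 0.26 with no filter, which adds the low genes Fosb and Arc, and 0.46 to 0.70 without single libraries. The median percentile of the members' spread, 93.0, became 89.2 and 91.2 with pseudocounts of 0.1 and 0.5, 91.1 with no filter, 97.0 with a mean of at least 5 FPKM, and 91.6 to 94.9 without single libraries. These alternatives for the spread were chosen after seeing the data. With replicate number as a block 2 rows and 0 members passed. Over all tested rows, libraries with the same number had correlations of 0.072, 0.0063 and 0.10 in their deviations from the group means. Between libraries with different numbers they were -0.12 to 0.036, so 0.072 and 0.10 lay above that range and 0.0063 within it. All were weak. The labels do not say whether the numbers pair the libraries, and a pairing was not tested. Fos, Egr1, Npas4, Nr4a1 and Ier2 were each highest in replicate 3 of both labels. With 3 libraries a group, the spread of Egr1 and Fos limits what can be seen of a difference between labels.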
